A study of Mus musculus with 6 samples.

Results

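The genes described here are 8 members of the MS4A family, grouped under the name of myeloid membrane proteins: Ms4a4a, Ms4a4c, Ms4a4d, Ms4a6b, Ms4a6c, Ms4a6d, Ms4a7 and Ms4a8a. Which cells expressed each gene in these livers was not measured, so the name need not hold for every member. They were taken by name and make up 8 of the 15454 rows of the count table and 8 of the 21948 rows of the FPKM table (fragments scaled by transcript length and library size). Of these 8 genes, 7 had enough counts to enter the fit over 12411 genes, and Ms4a7 did not. The names were chosen with the difference between the groups already known, so the members' values, fold changes and standard errors (SE) are given as a description, without a p-value.

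RNA was sequenced from the livers of 6 male C57BL/6 mice aged 8 to 10 weeks, all of which underwent 75% warm hepatic ischemia and reperfusion (I/R). The 3 mice of the I/R group received vehicle solution, and the 3 mice of the I/R+Rk2 group received ginsenoside Rk2, a saponin of ginseng, dissolved in that vehicle. Per the paper, the sequenced Rk2 livers came from its high-dose group. Vehicle or compound went into the peritoneum 2 days before the operation and once more as perfusion began. Livers were collected once reperfusion was complete. Every liver was therefore injured, and sham-operated livers were not analysed here. Total counts ran from 16809613 to 35618074 per liver. Whole liver was used, so a lower level of a gene can mean fewer cells of a type or less RNA per cell, which cannot be told apart in these samples.

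MS4A proteins are small membrane proteins that cross the membrane several times, and many of them sit beside an immune receptor and adjust its signalling. The best known relatives outside the 8 are Ms4a1, which encodes the B cell antigen CD20, and Ms4a2, which encodes the beta chain of the high-affinity IgE receptor of mast cells. Many genes of the Ms4a4 and Ms4a6 subgroups are found above all in monocytes and macrophages, and in the injured liver such cells include the resident Kupffer cells and the monocytes that enter from the blood.

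In I/R livers 7 of the 8 genes were expressed, and in I/R+Rk2 livers Ms4a4d was the only member above 0.5 FPKM on average. Between the groups, 6 of the 7 members tested were lower past the threshold (a Benjamini-Hochberg adjusted p under 0.05 with over a 2-fold change), where 11.4% of all genes tested were lower past it. No member was higher, and 3.17% of all genes were higher past the threshold, so that 14.6% passed it in either direction. By the adjusted p alone, all 7 members tested were lower, against 23.7% of all genes. In each of these 7 members every I/R+Rk2 liver lay below every I/R liver, which held for 30.3% of all genes. Since the members were picked on this contrast, nothing is read from these shares. The median log2 fold change of the 7 members, I/R+Rk2 over I/R, was -4.97, and that of all genes tested was -0.01.

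The summed level of the 8 members was 54.3 ± 8.06 CPM in I/R livers against 4.35 ± 0.0760 CPM in I/R+Rk2 livers (CPM, counts scaled to library size and TMM factor, mean ± SD, n = 3), a 12.5-fold difference. Without Ms4a4d the sum was 51.0 ± 8.19 CPM against 2.15 ± 0.164 CPM, a 23.7-fold difference. On average Ms4a4d held about as much of the I/R+Rk2 sum as the other members together.

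All 8 members lie on chromosome 19 within 537.4 kb (chr19:11067471-11604849 in mm10, the build of the processing notes, by GENCODE M21), in a row of 19 MS4A genes. Going along the chromosome, Ms4a8a and Ms4a7 come first, on the minus strand, followed by Ms4a4a, Ms4a4c, Ms4a6c, Ms4a6b and Ms4a4d on the plus strand and by Ms4a6d on the minus strand. The members of a subgroup resemble each other closely, which matters for how reads are shared out among them. Coding sequences of Ms4a4c and Ms4a4d were 86.1% identical over aligned bases, those of Ms4a6b and Ms4a6c 85.0%, and those of Ms4a6b and Ms4a6d 80.6%. Ms4a4a was further off, with 65.7% identity to Ms4a4c and 65.4% to Ms4a4d.

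To show this resemblance, 90 coding bases of each Ms4a4 member are given 5′ to 3′ from GENCODE M21, with capitals at the positions that are not the same in all 3. Of the 90 positions, 66 were the same and 24 differed. They start at coding base 105 of Ms4a4a and at coding base 96 of Ms4a4c and Ms4a4d, and are exonic.
Ms4a4a: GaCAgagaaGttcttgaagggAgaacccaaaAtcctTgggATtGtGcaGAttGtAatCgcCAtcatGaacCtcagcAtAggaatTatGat
Ms4a4c: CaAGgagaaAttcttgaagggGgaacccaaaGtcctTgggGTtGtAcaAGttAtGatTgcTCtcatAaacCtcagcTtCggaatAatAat
Ms4a4d: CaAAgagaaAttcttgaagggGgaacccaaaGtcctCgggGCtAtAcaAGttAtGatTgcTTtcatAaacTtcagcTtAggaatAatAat

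The same length of the Ms4a6 coding sequence, from coding base 100 in each gene, is shown for its closer likeness, since 84 of its 90 positions were the same in all 3 genes and 6 differed (capitals).
Ms4a6b: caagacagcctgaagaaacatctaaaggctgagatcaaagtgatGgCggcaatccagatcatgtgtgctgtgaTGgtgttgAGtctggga
Ms4a6c: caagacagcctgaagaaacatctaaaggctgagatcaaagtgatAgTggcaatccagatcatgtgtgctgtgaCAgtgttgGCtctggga
Ms4a6d: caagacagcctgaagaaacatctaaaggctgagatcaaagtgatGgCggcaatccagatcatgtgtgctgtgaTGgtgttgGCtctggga

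Read sharing was examined on the annotated transcripts by asking how many stretches of a fixed length also occur, on either strand, in the transcripts of another gene. At 50 bases, no stretch of Ms4a4a or Ms4a8a was shared, and Ms4a4d (0.546%), Ms4a7 (0.306%), Ms4a6d (2.54%) and Ms4a6b (3.57%) shared few. Ms4a4c shared 8.19% of its stretches, most of them with Ms4a4b (7.73%), which is not among the 8 members. Ms4a6c stood apart with 51.4%. Of its stretches, 49.6% lie in BE692007, a noncoding gene annotated on the opposite strand that shares 1088 exon bases with it, and 5.85% lie in Ms4a6b. BE692007 had no row in either table, and whether the reads were counted by strand is not given in the sources used here, so reads of Ms4a6c and of BE692007 may not have been told apart. At 100 bases only Ms4a4c (1.66%) and Ms4a6c (45.8%) shared any stretch.

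To set aside how reads were divided among the members of a subgroup, their counts were summed before the fit. The sums leave the sharing with Ms4a4b and BE692007 as it was, since neither is part of them. The summed Ms4a4a, Ms4a4c and Ms4a4d counts were 282, 376 and 449 in I/R livers 1 to 3 and 60, 83 and 41 in I/R+Rk2 livers 1 to 3, with a log2 fold change of -2.66 (SE 0.14). The summed Ms4a6b, Ms4a6c and Ms4a6d counts were 530, 869 and 1035 in I/R and 40, 49 and 29 in I/R+Rk2, with a log2 fold change of -4.40 (SE 0.20). Both sums were thus lower in every I/R+Rk2 liver, and the smaller difference of the Ms4a4 sum goes with the counts of Ms4a4d within it.

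Ms4a4a encodes a macrophage protein that associates with the beta-glucan receptor Dectin-1 and is known for its genetic link with soluble TREM2 in human brain fluid. Its level was 5.32, 4.57 and 6.38 CPM in the I/R livers and 0.210, 0 and 0 CPM in the I/R+Rk2 livers. These are 102, 117 and 160 counts against 5, 0 and 0, so a single treated liver held all the counts of its group. A count of 0 allows up to 0.0888 CPM in I/R+Rk2 liver 2 and 0.184 CPM in I/R+Rk2 liver 3 (3 counts per library, counting error only). The log2 fold change was -6.20 (SE 0.70). It was -5.41 without I/R+Rk2 liver 2, and without I/R+Rk2 liver 1 the remaining treated livers were at 0, so that Ms4a4a was at least 39.7-fold lower there against 3 counts per library.

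Ms4a4c is a member of the same subgroup whose RNA is found in monocytes and is raised by interferon. It reached 6.26, 6.32 and 8.53 CPM in I/R against 0.210, 0.178 and 0.307 CPM in I/R+Rk2, or 120, 162 and 214 counts against 5, 6 and 5. The groups were far apart and the treated livers all stood at a few counts. The log2 fold change was -4.97 (SE 0.28).

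Ms4a4d, the nearest relative of Ms4a4c by coding sequence, differed less between the groups. It stood at 3.13, 3.79 and 2.99 CPM in I/R against 2.10, 2.28 and 2.21 CPM in I/R+Rk2, or 60, 97 and 75 counts against 50, 77 and 36. The treated livers lay just below the others without overlap, and their mean was 66.6% of the I/R mean. The log2 fold change of -0.59 (SE 0.19) did not reach a fold of 2.

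Ms4a6b, an Ms4a6 relative also known from lymphocytes, stood at 4.85, 5.39 and 6.02 CPM in I/R against 0.630, 0.563 and 0.491 CPM in I/R+Rk2. The counts were 93, 138 and 151 against 15, 19 and 8. All treated livers were low, and the log2 fold change of -3.25 (SE 0.22) was smaller in size than those of the other Ms4a6 genes.

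Ms4a6c, a gene found in monocytes, had 11.7, 14.8 and 18.5 CPM in I/R against 0.672, 0.681 and 0.921 CPM in I/R+Rk2. Its counts were 224, 379 and 463 against 16, 23 and 15, and its log2 fold change was -4.33 (SE 0.24). It was the member with the most counts in every I/R liver.

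Ms4a6d encodes a macrophage protein reported to pair with the complement receptor Vsig4 and to restrain inflammasome genes. It had 11.1, 13.7 and 16.8 CPM in I/R against 0.378, 0.207 and 0.368 CPM in I/R+Rk2. Its counts were 213, 352 and 421 against 9, 7 and 6, and its log2 fold change was -5.50 (SE 0.28). Per length, in FPKM, Ms4a6c and Ms4a6d were nearly level in I/R, and in each I/R+Rk2 liver Ms4a6d was lower than Ms4a6c.

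Ms4a8a, a gene described in alternatively activated macrophages, had 4.17, 4.57 and 3.39 CPM in I/R against 0, 0.207 and 0 CPM in I/R+Rk2. As with Ms4a4a, all counts of the treated group came from 1 liver (80, 117 and 85 counts against 0, 7 and 0). The log2 fold change was -5.40 (SE 0.68). Without I/R+Rk2 liver 2 the other treated livers were at 0, which puts Ms4a8a at least 26.0-fold lower against 3 counts per library.

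Ms4a7, which marks macrophages of several tissues, was at the edge of detection in all livers. It had 6, 0 and 7 counts in I/R and 5, 5 and 1 counts in I/R+Rk2, and the groups overlapped. No difference was detectable at this depth.

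**Figure D1:**
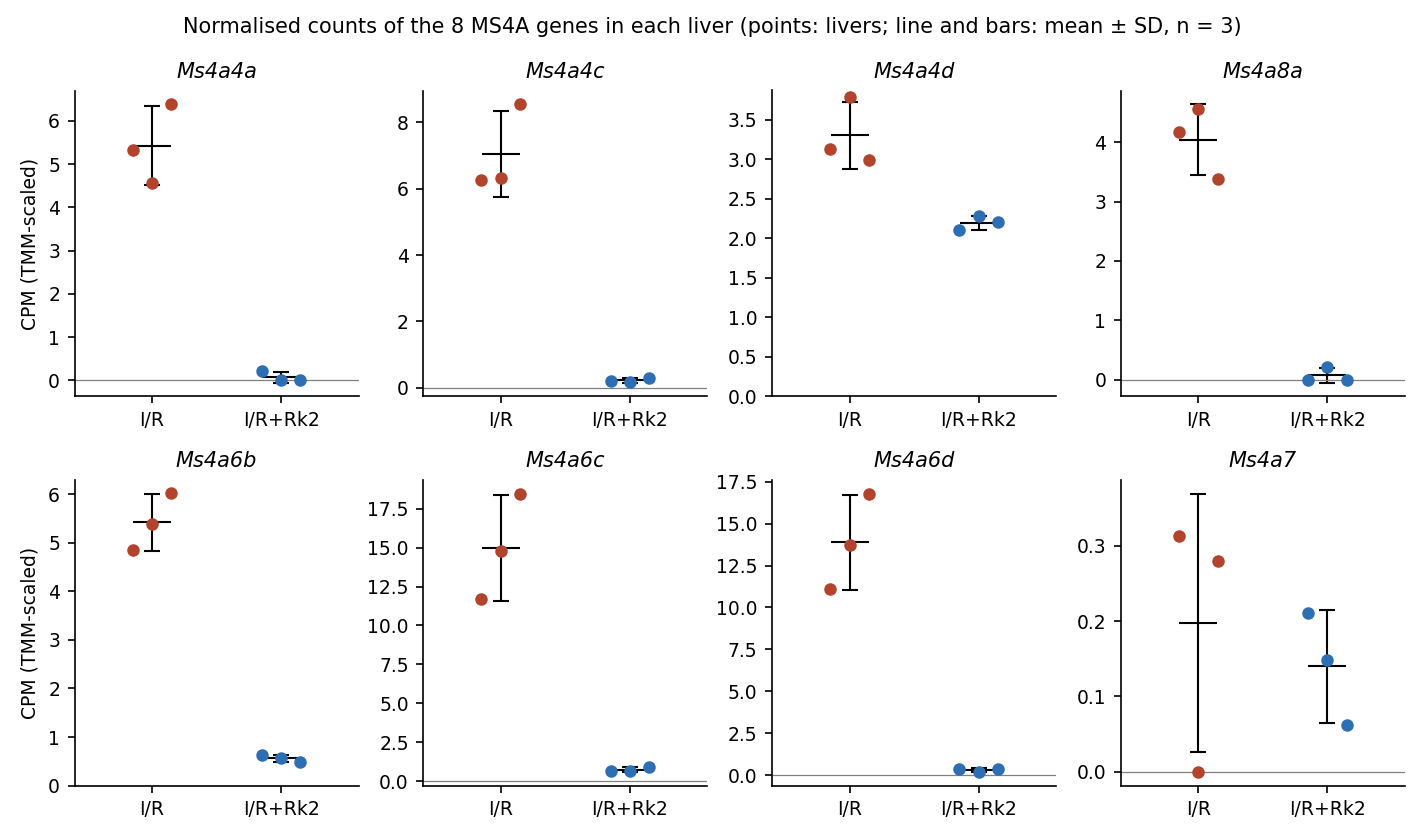
TMM-scaled CPM of each of the 8 MS4A genes (vertical axes, each with its own scale that includes 0) in the 3 I/R livers (red) and the 3 I/R+Rk2 livers (blue); lines and bars are the mean ± SD. The treated livers sit near 0 for 6 genes, at 2.10 to 2.28 CPM for Ms4a4d, and overlap the I/R livers for Ms4a7.

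Levels of different members can be compared only per length, as FPKM. In I/R livers the order was Ms4a6d (10.2 ± 1.59 FPKM, SD, n = 3), Ms4a6c (10.1 ± 1.86), Ms4a4a (6.39 ± 1.06), Ms4a4c (5.93 ± 1.59), Ms4a6b (4.18 ± 0.440), Ms4a8a (3.65 ± 0.587), Ms4a4d (2.15 ± 0.265) and Ms4a7 (0.0841 ± 0.0871). Neighbours whose livers overlapped were Ms4a6d and Ms4a6c, Ms4a4a and Ms4a4c, and Ms4a6b and Ms4a8a, so these pairs had no order beyond their spread. In I/R+Rk2 livers Ms4a4d came first with 1.28 ± 0.0416 FPKM, above every liver of every other member. Ms4a6c followed with 0.353 ± 0.0560 FPKM and Ms4a6b with 0.246 ± 0.233 FPKM, and the lowest mean was that of Ms4a8a with 0.0541 ± 0.0937 FPKM. Among the members after Ms4a4d, neighbours overlapped in every case except Ms4a6d and Ms4a4c, and Ms4a4a and Ms4a8a were each at 0 in 2 of the 3 livers, so most of this order was within the spread. Ms4a4d thus moved from the seventh place to the first while its own level fell.

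As a share of the summed FPKM of the 8 members, Ms4a4d went from 5.09% ± 1.02 in I/R to 55.2% ± 8.63 in I/R+Rk2. Ms4a6d went from 23.8% ± 1.29 to 7.82% ± 1.72 and Ms4a4a from between 12.6% and 17.2% to between 0 and 8.22%. The share of Ms4a6b was 9.91% ± 1.91 in I/R and 9.56% ± 7.64 in I/R+Rk2, with wide variation among treated livers.

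**Figure D2:**
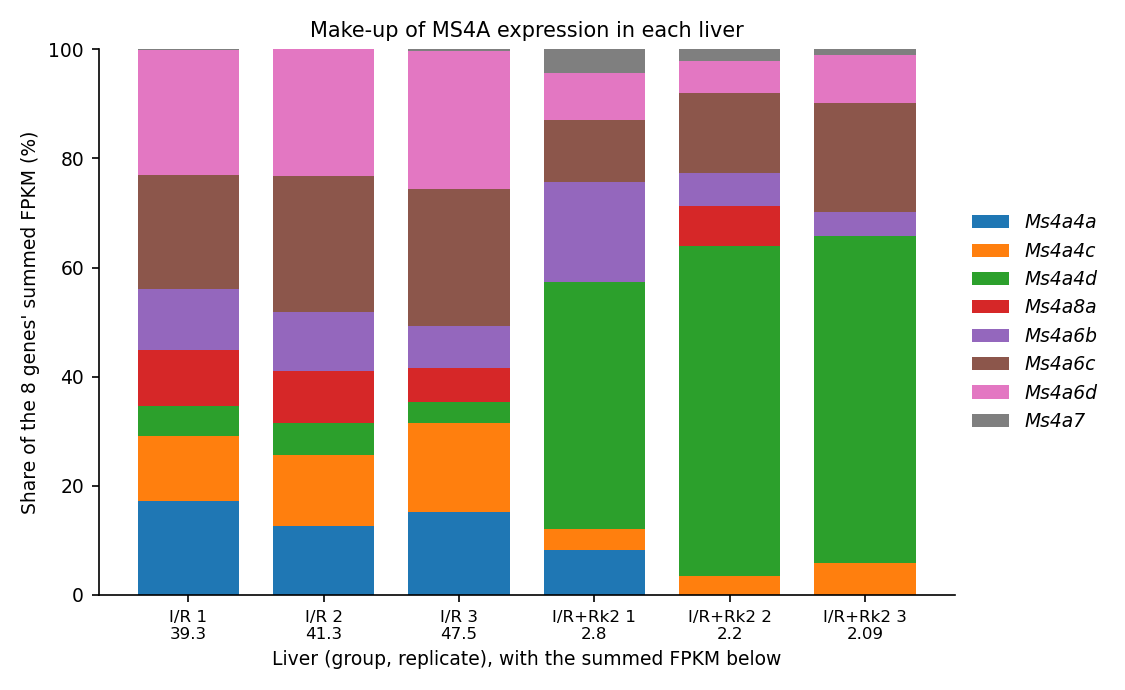
Share of each MS4A gene in the summed FPKM of the 8 genes (vertical axis, %) in each of the 6 livers, with the summed FPKM under each bar. Ms4a4d (green) takes 3.92% to 5.77% of the bar in I/R livers and 45.2% to 60.5% in I/R+Rk2 livers, where the sum itself is far smaller.

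The counts and the FPKM of a gene did not always give the same size of difference. Dividing a gene's counts by its FPKM and by the library's total count gives the transcript length that would link the values. For Ms4a4d, with 1 annotated transcript, this length was between 1.61 and 1.63 kb in all 6 livers, and for Ms4a4a it was between 0.890 and 0.898 kb in the 4 livers with counts. For Ms4a6b, with 5 annotated transcripts, it ran from 1.20 to 1.66 kb in the I/R livers and I/R+Rk2 liver 1 but was 4.09 kb in I/R+Rk2 liver 2 and 4.85 kb in I/R+Rk2 liver 3. For Ms4a4c it was 1.12 to 1.53 kb in I/R and 1.85 to 2.28 kb in I/R+Rk2. The size of the difference depended on the unit accordingly. The ratio of group means was 9.65-fold in CPM and 17.0-fold in FPKM for Ms4a6b, and 30.4-fold in CPM and 57.4-fold in FPKM for Ms4a4c. For Ms4a4d the I/R+Rk2 mean was 66.6% of the I/R mean in CPM and 59.8% in FPKM.

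Among all 12411 genes tested, ranked from the lowest log2 fold change, Ms4a4a was in place 27, Ms4a6d in 31, Ms4a8a in 32, Ms4a4c in 40, Ms4a6c in 59 and Ms4a6b in 128, whereas Ms4a4d was in place 2778. The places of Ms4a4a and Ms4a8a rest on the counts of 1 treated liver each.

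Of the other MS4A genes, 11 had a row in the FPKM table, and 9 of these (Ms4a2, Ms4a3, Ms4a5, Ms4a10, Ms4a12, Ms4a13, Ms4a14, Ms4a15 and Ms4a18) were listed at 0 in all 6 livers. Ms4a4b, a gene of T cells that shares stretches with Ms4a4c, had 17, 25 and 4 counts in I/R and 2, 3 and 0 in I/R+Rk2. It did not pass the filter on low counts, and without I/R liver 3 it was tested and lower past the threshold. Without I/R+Rk2 liver 1, 2 or 3 it was also tested, and it was not past the threshold in any of these fits. Ms4a1 had 0, 5 and 3 counts in I/R and 7, 5 and 3 in I/R+Rk2, and also was not tested. The MS4A-like genes Tmem176a and Tmem176b, which lie outside the cluster, were abundant. Tmem176a was at 99.6 ± 8.89 CPM in I/R against 129 ± 6.08 CPM in I/R+Rk2 (log2 fold change 0.37, SE 0.09, adjusted p = 0.0167, edgeR quasi-likelihood test), under a fold of 2. The sign turned in the fits to FPKM, where its log2 fold change was -0.16. Tmem176b was at 136 ± 18.4 CPM and 164 ± 9.72 CPM (log2 fold change 0.27, adjusted p = 0.0978 in edgeR), and its sign also turned in FPKM (-0.02).

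Of the genes without an MS4A symbol within 500 kb of the outermost members, 66 are annotated, 21 had a row in the count table and 15 were tested. Their median log2 fold change was -0.09. Past the threshold, 2 of the 15 were lower, beside 11.4% of all genes, and 1 was higher, beside 3.17% of all genes. Nothing is read from counts this small. The nearest before the cluster was Ccdc86, a nucleolar protein gene 118.2 kb away, which was lower (log2 fold change -1.10, SE 0.22, adjusted p = 0.00663 in edgeR). Prpf19, a splicing factor gene at 157.9 kb, had a log2 fold change of -0.09 (adjusted p = 0.483 in edgeR) and Tmem109 at 185.5 kb of 0.12 (adjusted p = 0.467 in edgeR). After the cluster, Mrpl16 at 165.5 kb had 0.27 (adjusted p = 0.131 in edgeR), Stx3 at 170.3 kb had -0.34 (adjusted p = 0.0366 in edgeR) and Patl1 at 307.6 kb had -0.77 (adjusted p = 0.00323 in edgeR), neither of them with a fold above 2. The remaining calls, named after their values were seen, were Slc15a3, a histidine transporter gene of phagocytes (-2.24, adjusted p = 0.00309 in edgeR), and Vwce (1.01, adjusted p = 0.00311 in edgeR). Without I/R+Rk2 liver 3 Ccdc86 no longer reached a fold of 2, and the higher call was lost without I/R liver 1 or 3 or I/R+Rk2 liver 1 or 2. The 6 members called had lower log2 fold changes than every tested neighbour, the lowest of which was that of Slc15a3. As the members were picked on this contrast and the neighbours by position, nothing is read from this order.

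**Figure D3:**
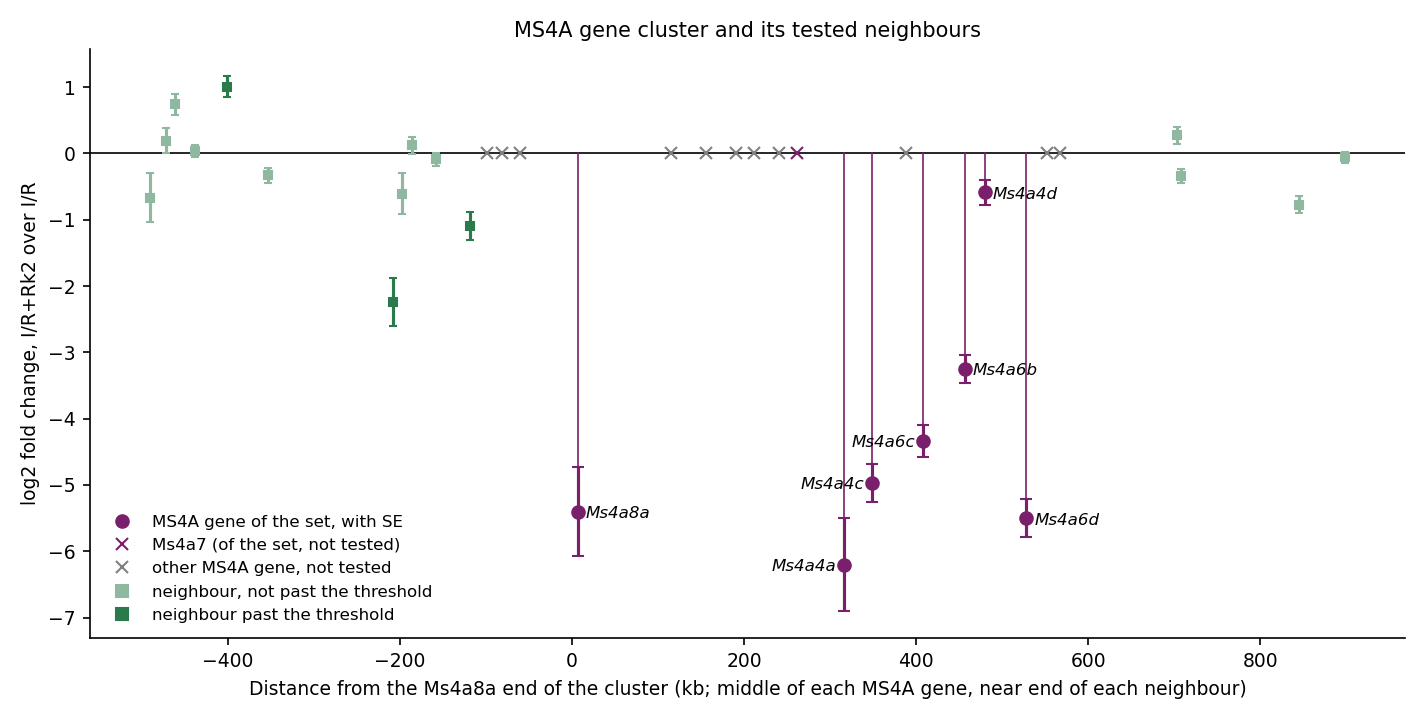
Log2 fold change with its SE (vertical axis) of the MS4A genes and their tested neighbours against distance along chromosome 19 from the Ms4a8a end of the cluster (horizontal axis, kb); crosses on the zero line are MS4A genes that were not tested. The MS4A points lie between -3.25 and -6.20 except Ms4a4d at -0.59, and the neighbours between -2.24 and 1.01.

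The promoters of the members were compared because 6 of them were low together. RefSeq promoters (GRCm38.p6, 250 bases before to 50 after the start) were given for 7 of the 8 members, in 8 windows, and Ms4a6d had no entry in the table. Windows were searched on both strands for 5 motifs. The letters of the GC box, GGGCGG, were in 1 of the 8 windows, that of Ms4a4d, and in 35.7% of all 32851 promoters. Those of the CCAAT box were found in 3 windows (37.4% of all), those of Ms4a4d, Ms4a7 and Ms4a8a, and those of AP-1, TGANTCA, in 2 (7.81% of all), those of Ms4a7 and Ms4a8a. The letters GAGGAAG, taken for PU.1, were in 0 of the 8 windows and in 13.6% of all promoters. The letters of the TATA box, TATAAA, were also in 0 of the 8 and in 13.6% of all. The windows of Ms4a6b and Ms4a6c shared 2 runs of at least 12 bases, the longest of 48 bases.

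The 250 bases before the start are printed for Ms4a4d, which had the smallest fold change of the 7 members tested, and for Ms4a4a, which had counts in only 1 treated liver. Capitals mark the letters of the GC box and the CCAAT box on either strand, of which Ms4a4a had none. Both are on the plus strand, at chr19:11536544-11536793 for Ms4a4d and chr19:11375238-11375487 for Ms4a4a. A match is a run of letters and no more.
Ms4a4d: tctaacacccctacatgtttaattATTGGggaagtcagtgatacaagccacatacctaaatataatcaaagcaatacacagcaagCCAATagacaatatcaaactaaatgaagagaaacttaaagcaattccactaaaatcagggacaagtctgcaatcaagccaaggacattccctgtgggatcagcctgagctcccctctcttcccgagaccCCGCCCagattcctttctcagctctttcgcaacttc
Ms4a4a: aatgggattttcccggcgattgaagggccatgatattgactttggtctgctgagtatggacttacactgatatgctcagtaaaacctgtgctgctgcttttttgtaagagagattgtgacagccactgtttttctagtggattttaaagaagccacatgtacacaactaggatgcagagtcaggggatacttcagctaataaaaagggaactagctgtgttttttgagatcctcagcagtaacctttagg

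A list of genes linked with MS4A proteins was examined next. It mixes reported partners with signalling and inflammatory genes such as Il1b, so a gene in it need not bind an MS4A protein. Of the 9 genes of this list that were tested, 7 were lower past the threshold, beside 11.4% of all genes. The median log2 fold change of the 9 was -1.94. Tyrobp, the adaptor DAP12 that carries the signal of Trem2, fell from 34.7 ± 2.37 to 9.05 ± 1.85 CPM (log2 fold change -1.94, SE 0.16, adjusted p = 0.000366 in edgeR). Il1b, the cytokine released after inflammasome activation, fell from 99.9 ± 2.91 to 11.4 ± 5.16 CPM (-3.13, SE 0.30, adjusted p = 0.000568 in edgeR). Fcer1g, the common Fc receptor gamma chain, fell from 27.2 ± 3.58 to 7.10 ± 2.13 CPM (-1.94, SE 0.22, adjusted p = 0.000982 in edgeR). Vsig4, the reported partner of Ms4a6d, was measured at 4.91 ± 0.860 CPM in I/R against 4.32 ± 0.464 CPM in I/R+Rk2, and the groups overlapped (log2 fold change -0.19, adjusted p = 0.453 in edgeR). The Dectin-1 gene Clec7a, whose product Ms4a4a associates with, had no row in either table.

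Of 12 tested regulators of myeloid cells, 3 were lower past the threshold, beside 11.4% of all genes, with a median of -0.38. By the adjusted p alone 6 were lower and 2 higher, and the summed level of the list overlapped between the groups (771 to 805 CPM in I/R, 766 to 824 CPM in I/R+Rk2). The 3 past the threshold were Il10ra, a receptor chain for interleukin 10 (log2 fold change -2.55, adjusted p = 0.00051 in edgeR), the transcription factor gene Runx1 (-3.04, adjusted p = 0.000767 in edgeR) and Spi1, which encodes PU.1 (-1.86, adjusted p = 0.00113 in edgeR). The 2 higher genes, named after their values were seen, were Cebpa, a transcription factor gene of myeloid cells and hepatocytes (0.66, adjusted p = 0.00231 in edgeR), and the glucocorticoid receptor gene Nr3c1 (0.34, adjusted p = 0.0337 in edgeR). The sign of Nr3c1 turned in the fits to FPKM (-0.37 to -0.33, adjusted p = 0.0341 to 0.0401 in limma). By the adjusted p alone, counts and FPKM thus gave opposite directions for Nr3c1.

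Markers of several myeloid cell types were lower as well. The marker lists were chosen with earlier results of these data known, so their counts are a description. All 10 monocyte markers were lower past the threshold, beside 11.4% of all genes, with a median log2 fold change of -3.75. Their summed level was 243 to 263 CPM in I/R livers and 15.9 to 26.3 CPM in I/R+Rk2 livers. Ccr2, the receptor that brings monocytes out of the marrow, had a log2 fold change of -4.41 (adjusted p = 0.000131 in edgeR), the proteoglycan gene Vcan of -5.61 (adjusted p = 0.000212) and the clotting factor gene F13a1 of -5.15 (adjusted p = 0.000215). Of the 6 members called, Ms4a4c, Ms4a6b, Ms4a6c, Ms4a6d and Ms4a8a had fold changes within the range of the 10 markers (-5.61 to -1.69). Ms4a4a, with counts in 1 treated liver, lay beyond the lower end of that range by less than its SE.

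Beside each count that follows stands the share of all genes lower past the threshold, 11.4%. Of the 10 neutrophil markers tested, 8 were lower past the threshold, with a median of -2.03. Their summed level was 506 to 625 CPM in I/R against 94.7 to 225 CPM in I/R+Rk2, and Camp was listed at 0. Trem1 (log2 fold change -2.79), Mmp8 (-2.22) and Csf3r (-2.19) had adjusted p-values of 0.000296, 0.000988 and 0.00101 in edgeR. Of the 10 markers shared by macrophages, 4 were lower (median -0.71, 241 to 345 CPM against 102 to 125 CPM), led by Cd68 (-2.43, adjusted p = 0.000458 in edgeR), Csf1r (-1.50, adjusted p = 0.000506 in edgeR) and Fcgr1 (-2.89, adjusted p = 0.00051 in edgeR). Of the 7 Kupffer cell markers, only Cd163 was lower past the threshold (-1.38, adjusted p = 0.00357 in edgeR; list median -0.67, 49.2 to 77.2 CPM against 36.0 to 46.4 CPM). The count of lower Kupffer cell markers was 3 without I/R liver 2, and 2 without I/R+Rk2 liver 1 or 2. Clec4f, the marker most restricted to Kupffer cells, was at 16.9 ± 1.65 and 15.4 ± 2.23 CPM and not past it. Of the 7 markers of lipid-associated macrophages tested, 5 were lower (median -1.52, 275 to 313 CPM against 168 to 237 CPM), among them Lgals3 (-2.82, adjusted p = 0.000457 in edgeR), Cd63 (-1.52, adjusted p = 0.00134 in edgeR) and Mmp12 (-6.38, adjusted p = 0.00295 in edgeR). The part that changes in these cell types had in the members' values was not tested.

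For the counts of the other cell types, too, the shares of all genes past the threshold were 11.4% lower and 3.17% higher. Of the 4 dendritic cell markers tested, 3 were lower (median -1.82, 6.17 to 8.53 CPM against 3.74 to 4.23 CPM). This count dropped to 0 without I/R liver 3 and without I/R+Rk2 liver 2. No marker of B cells or of mast cells and basophils had enough counts to be tested, and Mcpt4, Mcpt8, Fcer1a and Cr2 were listed at 0. The mast cell and basophil markers summed to at most 1.67 CPM, and the B cell markers to at most 1.63 CPM. Of the T and NK cell markers only Cd4 was tested (log2 fold change 1.06, adjusted p = 0.233 in edgeR), they summed to 1.36 to 3.04 CPM in I/R against 1.29 to 4.25 CPM in I/R+Rk2, and Ncr1 was listed at 0. None of 8 hepatocyte markers was lower, and Ttr was higher past the threshold (1.06, adjusted p = 0.00132 in edgeR; list median 0.50, 74292 to 85308 CPM against 113525 to 135002 CPM), a call lost without I/R liver 1 or I/R+Rk2 liver 2. Of 8 endothelial markers, 3 were lower and 3 higher by the adjusted p alone (median 0.27, 205 to 213 CPM against 174 to 211 CPM), and 1 was past the threshold, Cdh5 (-1.17, adjusted p = 0.00249 in edgeR, under the fold limit without I/R+Rk2 liver 3). The sinusoidal markers Lyve1 (-0.84, adjusted p = 0.00107 in edgeR) and Clec4g (0.97, adjusted p = 0.00134 in edgeR) differed in opposite directions, and Clec4g passed a fold of 2 without I/R liver 2 or 3 or I/R+Rk2 liver 3. Kdr (0.83, adjusted p = 0.00332 in edgeR) and Tek (0.41, adjusted p = 0.048 in edgeR), named after their values were seen, were the other higher ones. Pdgfrb was the only call among 7 stellate markers (-1.39, adjusted p = 0.002 in edgeR; median -0.17, 166 to 196 CPM against 133 to 192 CPM). Of 4 cholangiocyte markers 0 were past the threshold (1 without I/R+Rk2 liver 1), and 1 had an adjusted p under 0.05 (median -0.30, 31.7 to 40.9 CPM against 28.8 to 35.4 CPM).

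**Figure D4:**
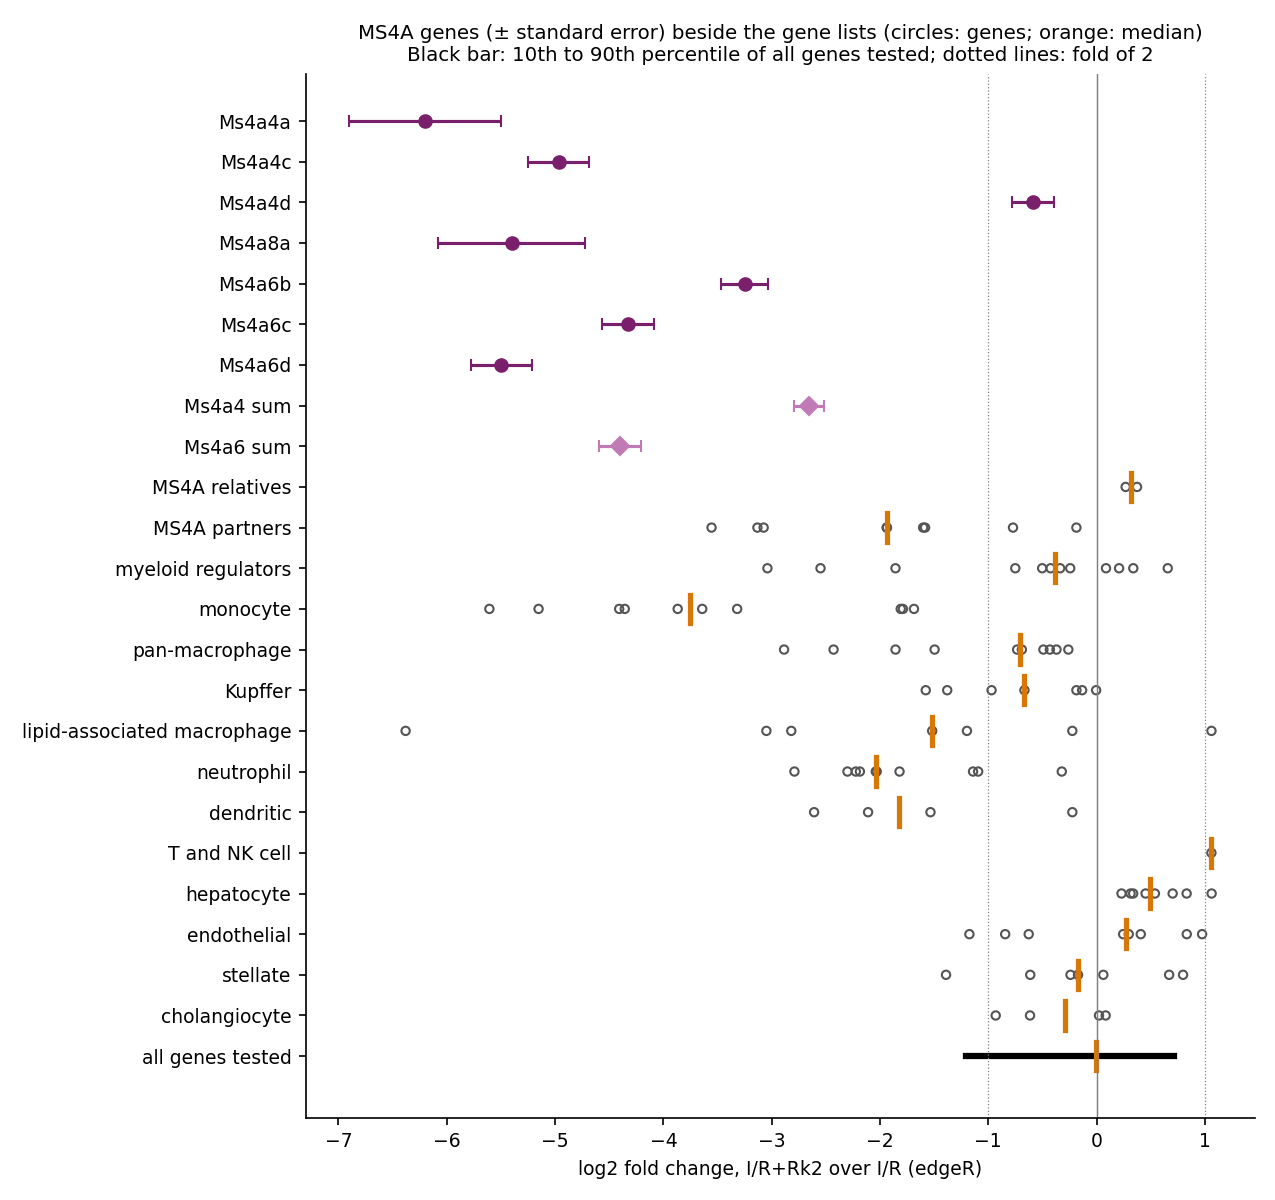
Log2 fold change, I/R+Rk2 over I/R (horizontal axis), of the 7 tested MS4A genes and the subgroup sums (filled symbols with SE) above the tested genes of each list (open circles, with the list's median in orange) and all genes tested (bar from the 10th to the 90th percentile). The MS4A genes other than Ms4a4d lie between -3.25 and -6.20, alongside the lower monocyte markers and left of most other circles.

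Set against the summed monocyte markers of the same liver, the 8 members together had 19.3, 20.2 and 24.0 CPM per 100 CPM of markers in I/R and 16.8, 26.8 and 27.3 in I/R+Rk2. The groups overlapped on this scale. Without Ms4a4d the ratio was 19.9 ± 2.63 in I/R and 11.6 ± 2.46 in I/R+Rk2 per 100 CPM of monocyte markers. Every treated liver then lay below every I/R liver. Ms4a4d was left out with its small change already known, so nothing is read from this separation. The members were also lower per 100 CPM of neutrophil markers (9.40 ± 1.54 against 3.36 ± 1.33), of markers shared by macrophages (16.7 to 22.1 against 3.53 to 4.19) and of Kupffer cell markers (87.3 ± 18.4 against 10.9 ± 1.29), without overlap in each case. The members were picked for this contrast, and the CPM of 30.3% of all genes tested was also lower without overlap. These ratios are therefore a description only.

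**Figure D5:**
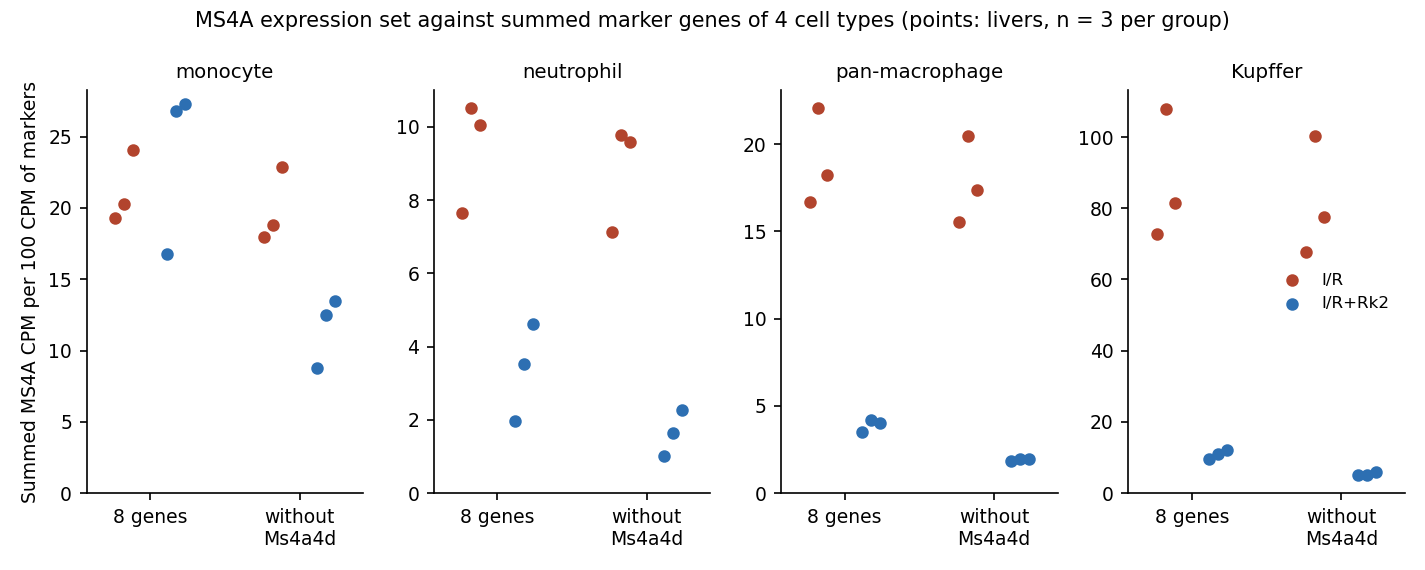
Summed CPM of the 8 MS4A genes, and of the 7 without Ms4a4d, per 100 summed CPM of the markers of 4 cell types (vertical axes from 0) in each I/R liver (red) and I/R+Rk2 liver (blue). The groups overlap only for the 8 genes against monocyte markers, where I/R livers span 19.3 to 24.0 and I/R+Rk2 livers 16.8 to 27.3.

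Among the other genes that averaged at least 100 counts, those whose centred log2(CPM + 1) profile over the 6 libraries came nearest to the members' mean profile were Myo1f, a myosin of leukocytes (root mean square difference 0.0902), Soat1, which esterifies cholesterol (0.142), the amino acid transporter gene Slc7a5 (0.158), the heme oxygenase gene Hmox1 (0.167) and Tgfbi, which encodes a secreted matrix protein (0.167). The median over 9170 candidates was 1.22. Among the members, the difference was 0.167 for Ms4a4a, 0.173 for Ms4a6b, 0.181 for Ms4a4c and 0.200 for Ms4a8a. It was 0.414 for Ms4a6c, 0.563 for Ms4a6d and 0.983 for Ms4a4d. By this measure the other genes named lay closer to the mean profile than every tested member except Ms4a4a. The 6 points of a profile are livers of 2 groups, so a likeness includes the difference between the groups. Adding 1 to the CPM compresses low levels, so a near profile does not mean an equal fold change. The log2 fold changes were -3.20 for Myo1f, -3.08 for Soat1, -2.65 for Slc7a5, -2.65 for Hmox1 and -2.16 for Tgfbi. The median of the 7 members tested was -4.97. Myo1f stood at 9.09 ± 1.37 CPM in I/R against 0.966 ± 0.164 CPM in I/R+Rk2.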

How the data were processed

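Total RNA (250 ng per liver) was sequenced on the BGISEQ-500 platform. Per the processing notes of the submitters, reads were checked with FastQC 0.11.5, aligned to mm10 with HISAT2 2.2.1, handled with SAMtools and quantified with StringTie 1.3.3. Neither annotation nor strand setting is given in the sources used here. The authors deposited whole-number counts per gene and a table of FPKM values, and column names tie each liver to its sample.

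The fit used edgeR 4.0.16 (R 4.3.3) with filterByExpr, TMM scaling and the quasi-likelihood F test of I/R+Rk2 against I/R on all 6 libraries, with Benjamini-Hochberg adjustment over the 12411 genes tested. SE is the absolute log2 fold change over the square root of F. The threshold was that of the study, an adjusted p under 0.05 with over a 2-fold change. DESeq2 1.42.0 and limma 3.58.1 on log2(FPKM + pseudocount) were alternatives. The scripts were tested on simulated data with 200 changed genes.

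Total counts ran from 16809613 to 35618074 per library, and 3 counts stood for 0.0888 to 0.184 CPM. Livers of a group differed well beyond sampling noise (chi-square per degree of freedom 31.4 to 74.8). Nothing in the labels says more about the replicates than their numbers, so p-values measure the spread between these samples.

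The members and the 16 gene lists were chosen with earlier results of these data known. Genes named are the 8 members, other MS4A genes with Tmem176a and Tmem176b, at most 3 tested genes of smallest p per list, at most 3 nearest tested neighbours on each side, and the 5 genes with at least 100 mean counts nearest to the members' mean profile. Vsig4, Clec4f, Clec7a, Slc15a3, Vwce, Fabp5, Trem2 and markers listed at 0 were named after their values were seen. Gene positions, transcripts and coding sequences came from GENCODE M21, and promoters from RefSeq on GRCm38.p6.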

Additional observations from a re-analysis of the deposited data

How the results depend on the processing

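Under the 16 alternatives the 7 members tested kept their direction wherever they could be fitted, and the count of members lower past the threshold stayed at 6, except with at least 10 counts in every library, where 2 members were left in the fit and 1 was called, because that filter removes genes that are low in treated livers. The size of the members' fold changes depended on the unit. In the FPKM fits Ms4a4a ran from -5.43 to -2.78, Ms4a8a from -4.75 to -2.14, Ms4a6d from -5.17 to -3.23, Ms4a4c from -4.87 to -2.63, Ms4a6c from -4.49 to -3.03, Ms4a6b from -3.82 to -2.07 and Ms4a4d from -0.69 to -0.46. With pseudocount 1 Ms4a6d, not Ms4a4a, had the lowest value of the members. With library size alone the median of all genes shifted by -0.16 on the log2 scale, the Ms4a4 sum moved to -2.81, and 246 genes were higher past the threshold. On log2(FPKM + 1), which compresses low levels, 901 genes were past the threshold (808 lower, 93 higher; 921, 839 and 82 without a filter), and on log2(FPKM + 0.1) 154 were higher. Leaving out each liver in turn gave -2.70 to -2.56 for the Ms4a4 sum and -4.52 to -4.25 for the Ms4a6 sum. The cause of these shifts was not tested.

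Counts in small lists moved most. With FPKM the lower calls became 0 for Kupffer cells and stellate cells (pseudocount 1), 0 for dendritic cells and 3 for lipid-associated macrophages, and the higher calls 0 for hepatocytes and 0 for the neighbours, while cholangiocytes gained 1 (pseudocount 0.1). Library size alone gave 3 lower calls for Kupffer cells, 2 for endothelial cells, 1 for cholangiocytes, and 0 higher for hepatocytes and for the neighbours. DESeq2 gave 2 for Kupffer cells. With at least 10 counts in every library there were 3 for lipid-associated macrophages, 0 for dendritic cells and 0 higher neighbours, and without a filter 1 for dendritic cells and 1 for the MS4A relatives (Ms4a4b). Over the fits without 1 liver the counts ran from 1 to 3 for Kupffer cells, 0 to 3 for dendritic cells, 0 to 1 for the relatives, endothelial cells, cholangiocytes, hepatocytes (higher) and neighbours (higher), and 1 to 2 for neighbours (lower). Genes with small changes turned sign. Tmem176a was at -0.16 in the 3 FPKM fits, and Tmem176b at -0.0156 in each. Nr3c1 was at -0.332 with pseudocount 1, with and without a filter, and at -0.372 with pseudocount 0.1. Each of these Nr3c1 values had an adjusted p under 0.05 in limma. Tmem109 was at -0.0333 with library size alone, at -0.0364 and -0.0414 in the FPKM fits, and between -0.0124 and 0.22 without 1 liver.

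The replicate numbers do not pair the livers (correlation of same-numbered deviations -0.03, 0.05 and -0.02). With a replicate block 1690 genes were past the threshold, against 1813 without it, and the Ms4a4 and Ms4a6 sums were -2.64 and -4.37. The block left 6 members and 1 dendritic cell marker called.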
